A study of Mus musculus with 26 samples.

Results

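Expression of the receptors for IL-33, IL-18, IL-1 and IL-36 was examined in a mouse cell culture model of acute myeloid leukemia. The family was taken as 9 genes, chosen by symbol with earlier results of these libraries known, and all 9 were found among the 54146 genes of the count files. The choice rested on the contrast described here, so the differences of these 9 genes between the arms are given as a description, without p-values. Their calls are only counted, beside the share called among all genes. Every culture carried MLL-AF9 (MA9), a fusion oncogene of human leukemia, introduced by retrovirus into lineage-negative mouse bone marrow. The comparison arm, MA9+EV, also carried the empty MSCVpuro vector, and MA9+SETDB1 carried a retrovirus for SETDB1, a methyltransferase that places the repressive H3K9 methylation mark. Both arms were grown in IL-3 and SCF for 8 to 12 weeks, with puromycin selection over 3 to 6 weeks. Poly-A RNA was sequenced from 3 libraries per arm, which the series calls biological replicates. No label ties them to separate transductions, so the p-values below measure the spread between these libraries, which may be technical.

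Receptors of this family pair a ligand-binding chain with an accessory chain, and the intracellular TIR domains of the pair recruit MyD88 and the IRAK kinases, which activate NF-kB and MAP kinases. IL-33 binds ST2, the product of Il1rl1, and is known as a strong activator of mast cells, basophils and eosinophils. IL1RAP is the accessory chain for IL-33, IL-1 and IL-36 signalling, whereas IL-18 uses its own pair of chains. A decoy receptor (IL1R2), an inhibitory receptor (SIGIRR) and a kinase-like inhibitor of the IRAK step (IRAK3) hold the pathway back.

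The libraries held 18070482 to 22561757 counts in genes. Setdb1 stood at 105 to 109 CPM (counts per 1e+06 counts after TMM scaling) in MA9+EV and at 475 to 607 CPM in MA9+SETDB1. Replicate 1 of each arm stood apart: Pearson's chi-square per gene between 2 libraries of an arm was 71.4 to 93.4 for pairs that included replicate 1, and 4.03 (MA9+EV) and 2.99 (MA9+SETDB1) for replicates 2 and 3. Values are therefore given for every library, and with and without replicate 1 where it matters. In bulk RNA, fewer cells that express a gene and less RNA per cell cannot be told apart.

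Of the 9 genes, 6 lie side by side on chromosome 1 (GRCm38, 40084692 to 40551707, a span of 467 kb) in the order Il1r2, Il1r1, Il1rl2, Il1rl1, Il18r1 and Il18rap. Il1rl1 ends 133 bases before Il18r1 begins. Il1rap lies on chromosome 16 (26581509 to 26730128), Sigirr on chromosome 7 (141091175 to 141100597) and Irak3 on chromosome 10 (120141648 to 120202130). The RefSeq promoter table held 13 start sites for 8 of the genes, and Sigirr had no entry. Il1rl1 is known to have a distal start site, used in mast cells and other blood cells, and a proximal one used in fibroblasts. The table held 2 start sites for it, 10059 bases apart. The 250 bases before each start site were searched on both strands for AGATAA and TGATAA, forms of the GATA motif. Gata2, a GATA transcription factor of mast cells and stem cells, had 63 counts over MA9+EV and 70816 over MA9+SETDB1. At least 1 match lay in 5 of the 13 windows, against 16.6% of 32841 mouse promoter windows of this length. A match is a description of the letters and not of binding, and a link between Gata2 and the members was not tested. The windows with a match are printed below with the matches in capitals (RefSeq, GRCm38.p6, 5′ to 3′ on the strand of the gene), together with that of Il1rl2, which had none. The 3 windows of Il18r1, a gene higher in MA9+SETDB1, also held no match.
Il1rl1 distal, plus strand, chr1:40429320-40429569: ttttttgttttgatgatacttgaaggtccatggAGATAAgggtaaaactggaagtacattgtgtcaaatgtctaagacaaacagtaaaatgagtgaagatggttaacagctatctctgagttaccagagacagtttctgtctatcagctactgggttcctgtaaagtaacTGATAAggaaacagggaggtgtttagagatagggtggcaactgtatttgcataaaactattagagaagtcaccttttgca
Il1rl1 proximal, plus strand, chr1:40439379-40439628: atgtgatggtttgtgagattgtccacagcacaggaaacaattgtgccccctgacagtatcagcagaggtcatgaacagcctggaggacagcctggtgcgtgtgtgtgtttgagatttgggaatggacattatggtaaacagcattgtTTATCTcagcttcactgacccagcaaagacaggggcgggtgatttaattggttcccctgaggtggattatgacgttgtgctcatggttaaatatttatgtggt
Il18rap, plus strand, chr1:40515112-40515361: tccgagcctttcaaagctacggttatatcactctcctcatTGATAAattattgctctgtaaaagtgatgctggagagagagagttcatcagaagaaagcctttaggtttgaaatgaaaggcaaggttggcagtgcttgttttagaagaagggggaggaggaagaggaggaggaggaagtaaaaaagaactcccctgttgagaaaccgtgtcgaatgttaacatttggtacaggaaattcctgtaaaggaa
Il1r2, plus strand, chr1:40085843-40086092: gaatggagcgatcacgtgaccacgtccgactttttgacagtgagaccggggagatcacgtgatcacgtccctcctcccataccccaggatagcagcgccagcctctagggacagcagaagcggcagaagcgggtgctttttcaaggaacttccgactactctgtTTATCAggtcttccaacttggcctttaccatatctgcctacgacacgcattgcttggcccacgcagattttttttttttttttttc
Irak3 upstream start, minus strand, chr10:120202131-120202380: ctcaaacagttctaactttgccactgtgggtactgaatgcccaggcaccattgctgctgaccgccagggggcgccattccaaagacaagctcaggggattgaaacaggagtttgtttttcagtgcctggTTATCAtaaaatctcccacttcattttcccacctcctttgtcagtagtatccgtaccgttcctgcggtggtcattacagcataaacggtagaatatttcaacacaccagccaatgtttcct
Il1rl2, plus strand, chr1:40324339-40324588: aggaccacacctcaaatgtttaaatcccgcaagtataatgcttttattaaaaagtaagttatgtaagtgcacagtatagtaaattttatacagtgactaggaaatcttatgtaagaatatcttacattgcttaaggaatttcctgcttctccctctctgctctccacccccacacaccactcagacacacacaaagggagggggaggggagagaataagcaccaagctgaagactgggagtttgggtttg

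In the distal Il1rl1 window AGATAA began at base -217 and TGATAA at base -80, counted from the start site. The proximal window held AGATAA on the opposite strand at -103. The windows of Il1r2 and Irak3, which differed in opposite directions between the arms, each held TGATAA on the opposite strand, at -86 and -121. The distal Il1rl1 window held no CG dinucleotide, as did 7.86% of all windows, and that of Il1rap held 30, with 94.8% of all windows holding as many or fewer. Of 3 further motifs searched, GGAAGT (19.7% of all windows) was found in windows of Il1rl1, Il18r1, Il18rap, Il1r1 and Il1r2, a relaxed NF-kB motif (45.8%) in windows of Il1rap, Il18r1, Il1r1 and Irak3, and TGANTCA (6.75%) in none of the 13.

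The ligand-binding chain for IL-33 was nearly absent from MA9+EV and abundant in MA9+SETDB1. Il1rl1 (ENSMUSG00000026069.15) had 5, 0 and 0 counts in MA9+EV replicates 1, 2 and 3, and 22835, 19306 and 22200 counts in MA9+SETDB1 replicates 1, 2 and 3. On the CPM scale this was 0.207, 0 and 0 against 1277, 1175 and 1153. All MA9+EV libraries were near or below the level of 3 counts (0.124 to 0.151 CPM), all MA9+SETDB1 libraries were high and close together, and the arms did not overlap. The ratio of the summed normalized counts was 16380 (exact binomial 95% interval 7019 to 50450, counting error only). Without replicate 1 of either arm, Il1rl1 was at least 17040-fold higher in MA9+SETDB1 by a floor of 3 counts over MA9+EV replicates 2 and 3. The counts are per gene and do not separate the membrane form of ST2 from the soluble form, which binds IL-33 as a decoy.

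Il1rap (ENSMUSG00000022514.14), the accessory chain gene, moved the other way and by far less. It stood at 52.7, 57.6 and 59.5 CPM in MA9+EV replicates 1, 2 and 3 and at 38.5, 32.6 and 32.9 CPM in the MA9+SETDB1 replicates in that order. The arms did not overlap, and the lowest MA9+EV library lay above the highest MA9+SETDB1 library. The means were 56.6 ± 3.5 and 34.7 ± 3.35 CPM (SD, n = 3), a fitted log2 fold change of -0.71. Both arms thus held transcripts of the accessory chain, and the arms divided by far more in the ligand-binding chain.

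For the IL-18 receptor, both chains were higher in MA9+SETDB1. Il18r1 (ENSMUSG00000026070.15), the ligand-binding chain, had 70, 2 and 4 counts in MA9+EV replicates 1, 2 and 3, or 2.89, 0.083 and 0.202 CPM. It had 158, 149 and 173 counts in MA9+SETDB1 replicates 1, 2 and 3, or 8.84, 9.07 and 8.99 CPM. The MA9+SETDB1 libraries were nearly level, and MA9+EV replicate 1 lay between them and the other MA9+EV libraries. The fitted log2 fold change of 3.06 depended on that library, reaching 5.96 without MA9+EV replicate 1 and 6.00 without replicate 1 of both arms. MA9+EV replicate 1 was also the only MA9+EV library with Il1rl1 counts. On the same strand, Il1rl1 ends 133 bases before Il18r1 begins. Over MA9+SETDB1, Il1rl1 had 64341 counts and Il18r1 had 480. Whether Il1rl1 transcripts that run past their annotated end add to the Il18r1 counts was not tested. Il18rap (ENSMUSG00000026068.11), the accessory chain, stood at 82.3, 70.1 and 66.3 CPM in MA9+EV and at 127, 120 and 115 CPM in MA9+SETDB1. Here the arms were separate but near, with means of 72.9 ± 8.35 and 120.5 ± 6.29 CPM and a fitted log2 fold change of 0.73. Il18rap was thus present in all 6 libraries, whereas Il18r1 was close to the floor in 2 of them.

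The receptors for IL-1 and IL-36 were low or lower in MA9+SETDB1. Il1r1 (ENSMUSG00000026072.12), the signalling receptor for IL-1, had 7, 2 and 2 counts in MA9+EV and 6, 4 and 4 in MA9+SETDB1, too few to pass the filter on low counts. The arms overlapped, and the ratio of 1.62 had a counting interval of 0.683 to 3.94. Il1r2 (ENSMUSG00000026073.13), the decoy receptor that binds IL-1 without signalling, stood at 35.8, 39.8 and 39.3 CPM in MA9+EV replicates 1, 2 and 3 and at 0.951, 3.29 and 2.6 CPM in the corresponding MA9+SETDB1 replicates. Every MA9+EV library was above every MA9+SETDB1 library, replicate 1 of MA9+SETDB1 was lowest, and the fitted log2 fold change was -4.07. An annotated lncRNA, Gm16894, overlaps Il1r2 by 1160 bases, with 1 to 14 counts per library. Il1rl2 (ENSMUSG00000070942.8), the ligand-binding chain for IL-36, stood at 49.1, 20.2 and 19.4 CPM in MA9+EV and at 1.85, 0.487 and 0.727 CPM in MA9+SETDB1. Replicate 1 was the highest library within each arm, 2.48 times the mean of replicates 2 and 3 in MA9+EV and 3.04 times in MA9+SETDB1. The arms did not overlap, and the fitted log2 fold change was -4.84. Summed normalized counts were 29.4-fold lower in MA9+SETDB1 with all libraries (counting interval 22.5 to 39.2) and the mean was 32.6-fold lower without replicate 1 of either arm.

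Of the members that hold the pathway back, Sigirr and Irak3 were higher in MA9+SETDB1, unlike the decoy receptor gene Il1r2. Sigirr (ENSMUSG00000025494.8), a receptor that dampens IL-1 family and Toll-like receptor signalling, stood at 13.3, 11 and 8.41 CPM in MA9+EV and at 24.3, 20.3 and 19.6 CPM in MA9+SETDB1. The highest MA9+EV library lay below the lowest MA9+SETDB1 library, and the fitted log2 fold change was 0.97. Irak3 (ENSMUSG00000020227.10), also called IRAK-M, stood at 46.5, 25.1 and 26.6 CPM in MA9+EV replicates 1, 2 and 3 and at 287, 435 and 396 CPM in the corresponding MA9+SETDB1 replicates. Replicate 1 was the highest of its arm in MA9+EV and the lowest in MA9+SETDB1, so that the arms were nearest in that replicate. The ratio of summed normalized counts was 11.2 with all libraries (counting interval 10.7 to 11.7), and the ratio of means was 16.1 without replicate 1 of either arm. The fitted log2 fold change was 3.51. The annotation places the lncRNAs Gm34545, Gm40781 and Gm38500 over Irak3, by 14581, 4984 and 541 bases, and counts for them were not used here. As the strand setting of counting is not known, reads of such partners cannot be told apart from those of the gene.

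**Figure D1:**
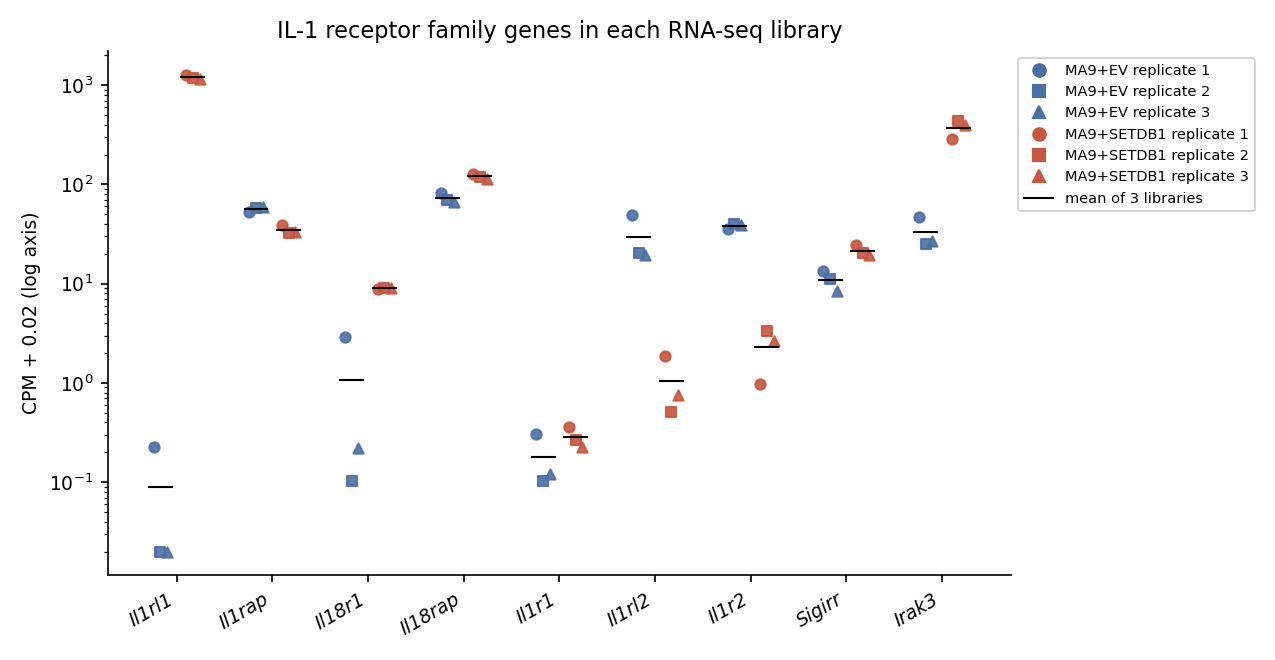
CPM of the 9 receptor family genes in each library (y axis, CPM plus 0.02, log scale; circles, squares and triangles are replicates 1, 2 and 3, and bars are means of 3 libraries). Il1rl1 stood at 0 to 0.207 CPM in MA9+EV and at 1153 to 1277 CPM in MA9+SETDB1, and Il1r1 was the only gene whose arms overlapped; CPM is not divided by transcript length, so heights compare libraries within a gene.

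Across the family, 8 of the 9 genes passed the filter on low counts. At an adjusted p under 0.05 in edgeR's quasi-likelihood test over all genes, 5 of these stood higher and 3 lower in MA9+SETDB1, where the same rule called 53.5% of all 12986 tested genes (27.4% higher and 26.2% lower). The arms did not overlap in any of the 8, as in 64.6% of all tested genes. With replicates 2 and 3 of each arm summed to 1 library, 5 of the 8 were called. Nothing is read from these counts, since the genes were chosen on this contrast. Fitted log2 fold changes ran from -4.84 to 13.89, beside a median of -0.01 over all tested genes.

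The 6 clustered genes differed in both directions within 467 kb. Il1r2 and Il1rl2 were lower, Il1rl1, Il18r1 and Il18rap were higher, and Il1r1 had too few counts. To see what the surrounding genes did, all genes annotated within 1000000 bases of the cluster were taken. Of 26 such genes in the files, 13 had no count in any library and 6 were tested. Tbc1d8, a Rab GTPase-activating protein gene 606 kb before the cluster, had a fitted log2 change of -1.72 (edgeR adjusted p = 0.00757, SE 0.37). Rnf149, a ubiquitin ligase gene 507 kb before it, had a change of -1.52 (edgeR adjusted p = 0.00171, SE 0.23). In edgeR's test 0 of the 6 passed upward (1 at an unadjusted p under 0.05, and 1 with DESeq2), and Rpl31, Cnot11, Map4k4 and Mfsd9 did not pass in either direction. Over all tested genes, 27.4% were called higher and 26.2% lower. Map4k4, the nearest tested gene at 58.4 kb before Il1r2 and a kinase gene, was singled out after its values were seen. It stood at 2.68, 1.62 and 1.66 CPM in MA9+EV and at 25.1, 3.41 and 2.91 CPM in MA9+SETDB1, so that replicate 1 of MA9+SETDB1 was far above the rest (fitted log2 change 2.39, edgeR adjusted p = 0.0569, SE 0.88). With the replicate number as a block it passed (fitted log2 change 1.76, edgeR adjusted p = 0.049). It also passed without replicate 1 of both arms (0.95, edgeR adjusted p = 0.00133). That setting keeps only the close pair of each arm, so its p-values rest on a small spread. It called 10599 of 13380 tested genes, against 6951 of 12986 with all libraries. On the other side of the cluster, Slc9a4 and Slc9a2, sodium-proton exchanger genes, had no counts.

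**Figure D2:**
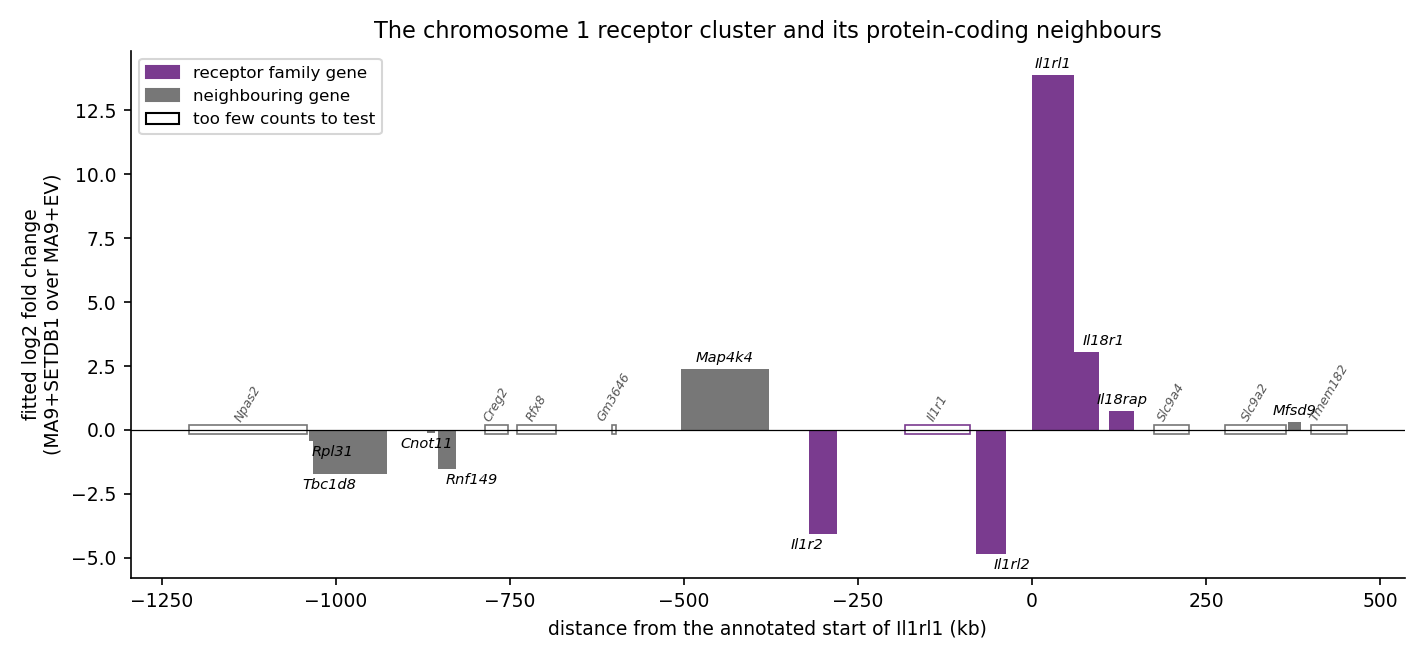
Fitted log2 fold change (y axis) of the receptor genes (purple) and of protein-coding genes within 1000000 bases (grey), drawn at their distance in kb from the annotated start of Il1rl1 (x axis; bar width is gene length, with very short genes widened to stay visible; open boxes had too few counts). Il1r2 and Il1rl2 lie below 0 at -4.07 and -4.84 beside Il1rl1 at 13.89, whose value is imprecise because MA9+EV held 5 counts.

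The genes for the ligands and their antagonists came from a list of 11, chosen with earlier results known, of which 10 were found in the files and 6 were tested. Of these, 2 rose and 4 fell, where 53.5% of all tested genes were called. Il1a and Il1b passed the low-count filter only through MA9+SETDB1, and Il33 and Il1f9 only through MA9+EV. The direction of these calls was set by the filter. Il33 itself was low throughout, at 1.32, 1.45 and 2.32 CPM in MA9+EV and at 0.112, 0.487 and 0.312 CPM in MA9+SETDB1 (fitted log2 change -2.47, edgeR adjusted p = 0.00656, SE 0.52). Its higher level lay in the arm with almost no Il1rl1. Il18 had 5, 6 and 6 counts in MA9+EV and 2, 0 and 0 in MA9+SETDB1, without overlap and 6.68-fold lower (counting interval 1.58 to 59.6), and was not tested. Il18bp, which encodes a soluble protein that neutralizes IL-18, fell from 5.71 ± 0.865 to 1.66 ± 0.554 CPM (SD, n = 3; fitted log2 change -1.78, edgeR adjusted p = 0.00325, SE 0.32).

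Il1a and Il1b, the genes of the IL-1 agonists, had the largest fitted changes of the 6 tested genes. Il1b stood at 0.0413, 0.498 and 0.302 CPM in MA9+EV replicates 1, 2 and 3 and at 548, 1627 and 1659 CPM in MA9+SETDB1 replicates 1, 2 and 3 (fitted log2 change 12.13, edgeR adjusted p = 4.92e-05, SE 0.81). Il1a had 2 counts in MA9+EV and stood at 7.33, 41.2 and 40.9 CPM in MA9+SETDB1 (fitted log2 change 9.72, edgeR adjusted p = 0.000504, SE 1.13), a ratio of 1016 with a counting interval of 281 to 8395. In both genes replicate 1 was the lowest MA9+SETDB1 library, as it was for Irak3. Il1rn, the gene of the IL-1 receptor antagonist, fell from 38.7, 34.3 and 34.8 CPM to 15.7, 5.9 and 4.83 CPM (fitted log2 change -2.03, edgeR adjusted p = 0.00733, SE 0.44). MA9+SETDB1 libraries thus combined high Il1b and Il1a with low Il1rn and low Il1r2, while Il1r1 stood near the floor in both arms.

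Of the IL-36 genes, Il1f9, the file symbol for Il36g, stood at 45.1, 36.1 and 39.7 CPM in MA9+EV and had 2, 3 and 8 counts in MA9+SETDB1 (fitted log2 change -7.35, edgeR adjusted p = 1.33e-05, SE 0.36). The ligand gene Il1f9 and the receptor gene Il1rl2 were thus both lower in the same libraries. The ligand genes Il1f6 (Il36a) and Il1f8 (Il36b) had no counts in any library, and Il36rn was not matched. Il1f10, a further gene of the ligand and antagonist list, also had no counts.

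**Figure D3:**
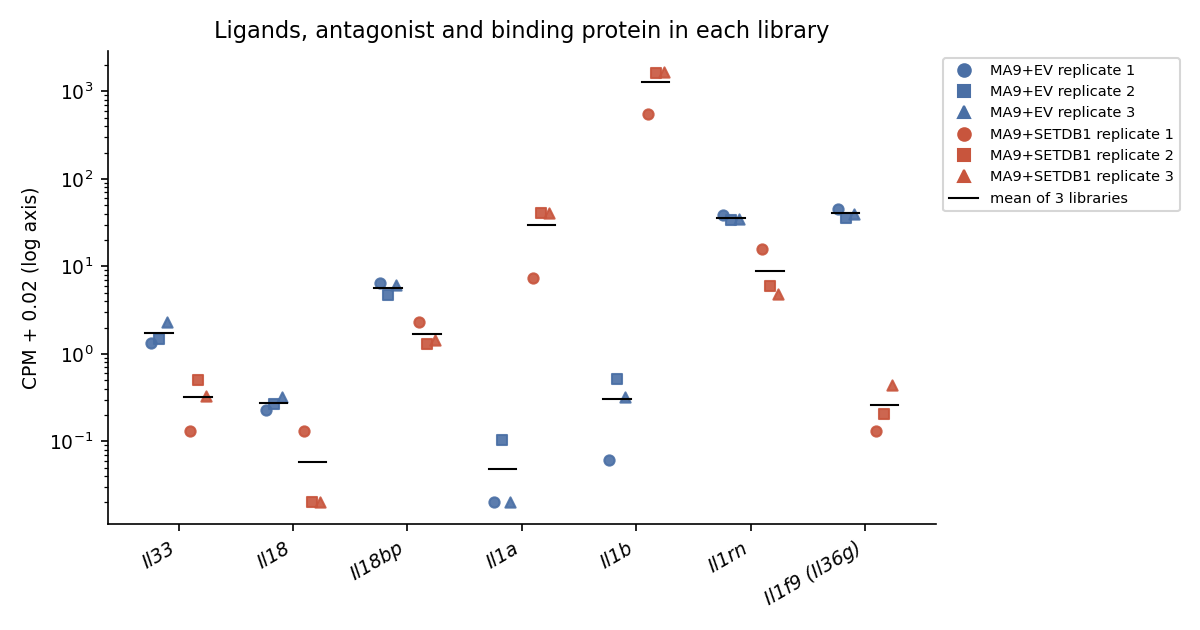
CPM of ligand, antagonist and binding protein genes in each library (y axis, CPM plus 0.02, log scale; symbols are replicates and bars are means of 3 libraries). Il1b reached 548 to 1659 CPM in MA9+SETDB1 against 0.498 CPM or less in MA9+EV, and Il1rn and Il1f9 stood higher in MA9+EV.

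Further genes of the pathway were counted from 5 more lists by role. Together with the ligands, 67 genes were tested, of which 29 rose and 15 fell (65.7% called, against 53.5% of all genes), with a median log2 fold change of 0.25 beside -0.01 over all genes. With replicates 2 and 3 of each arm summed, 19 rose and 8 fell, and without replicate 1 of both arms 35 rose and 25 fell. Over all genes these 2 settings called 4220 of 13942 and 10599 of 13380. Among adaptors and kinases, 7 of 21 rose and 3 fell, a share close to that of all genes (47.6%). Myd88, the adaptor that all signalling members share, stood at 53.5 ± 13.7 and 63.8 ± 8.95 CPM (edgeR adjusted p = 0.325), and the kinase genes Irak1 and Irak4 did not pass (edgeR adjusted p = 0.135 and 0.073). With the replicate number as a block, Irak1 and Irak4 passed as lower (edgeR adjusted p = 0.0382 and 0.0232), Tollip as higher (edgeR adjusted p = 0.0223), and Tirap, an adaptor gene among the 7, no longer passed (edgeR adjusted p = 0.0624). Tab2, an adaptor of the kinase TAK1, rose from 141.9 ± 8.57 to 435.7 ± 63.6 CPM, and Ikbkb, an IkB kinase gene, from 94.7 ± 7.98 to 186.5 ± 32.6 CPM. Peli2, a ubiquitin ligase gene of the IRAK complex, went from 35.5, 30.5 and 31.9 CPM in MA9+EV to 1 count over all of MA9+SETDB1, which is 1750-fold lower (counting interval 314 to 69130, edgeR adjusted p = 8.11e-06). Tifa, which encodes a TRAF6-binding protein, had 4 counts over MA9+SETDB1 against 888 over MA9+EV (edgeR adjusted p = 0.000327). In this list the 2 strongest changes were thus downward. Peli2 and Tifa passed the low-count filter only through MA9+EV, and Ube2v1, among the 7, only through MA9+SETDB1. The direction of these calls was set by the filter.

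Inhibitor and feedback genes, with a median log2 fold change of 0.85, had 66.7% called, against 53.5% of all genes. Of 15 tested, 10 were higher and 0 lower in edgeR's test (also 0 at an unadjusted p under 0.05 and 0 with DESeq2). Those with the smallest p were Zfp36, which promotes decay of cytokine mRNA (12.0 to 13.1 CPM in MA9+EV and 47.3 to 49.3 CPM in MA9+SETDB1, edgeR adjusted p = 2.5e-05), the cytokine feedback gene Socs1 (fitted log2 change 4.03, edgeR adjusted p = 0.000105), Nfkbiz, an atypical IkB gene (2.73, edgeR adjusted p = 0.000367), and the deubiquitinase gene Otud7b (0.85, edgeR adjusted p = 0.000382). Tnip3, also among the 10, passed the low-count filter only through MA9+SETDB1, so it could be called only as higher. The inhibitors Sigirr and Irak3 stood higher in the same libraries. Cytokine processing genes divided, with 2 of 11 higher and 5 lower (63.6% called, against 53.5% of all genes) and a median of -0.78. The inflammasome sensor gene Nlrp3 stood at 3.76, 18.2 and 18 CPM in MA9+EV and at 0.392, 0.487 and 0.364 CPM in MA9+SETDB1 (fitted log2 change -4.99, edgeR adjusted p = 0.00118, SE 0.70). It passed the low-count filter only through MA9+EV, so it could be called only as lower. Gsdmd, whose pores release mature IL-1 beta, fell by 1.39 (edgeR adjusted p = 0.000141, SE 0.12). The DNA sensor gene Aim2 rose by a fitted log2 change of 0.74 (edgeR adjusted p = 0.00938, SE 0.17). Of 5 tested genes in a list of Toll-like receptors and other relatives, 1 rose and 3 fell (80% called, against 53.5% of all genes). Tmed1 was in this list as a gene whose product binds ST2, and not as a relative with a TIR domain. The Toll-like receptor gene Tlr2 rose by a log2 fold change of 1.09, and Tlr1, Tlr6 and Tmed1 fell by 1.96, 2.00 and 0.91. These 4 had edgeR adjusted p values of 0.00284, 0.00534, 0.000654 and 0.0122 in the order given. With the replicate block 4 more genes of these lists passed: Tlr4 and Gsdme as lower (edgeR adjusted p = 0.00538 and 0.0263) and Nfkbie and Pycard as higher (edgeR adjusted p = 0.0399 and 0.0235).

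**Figure D4:**
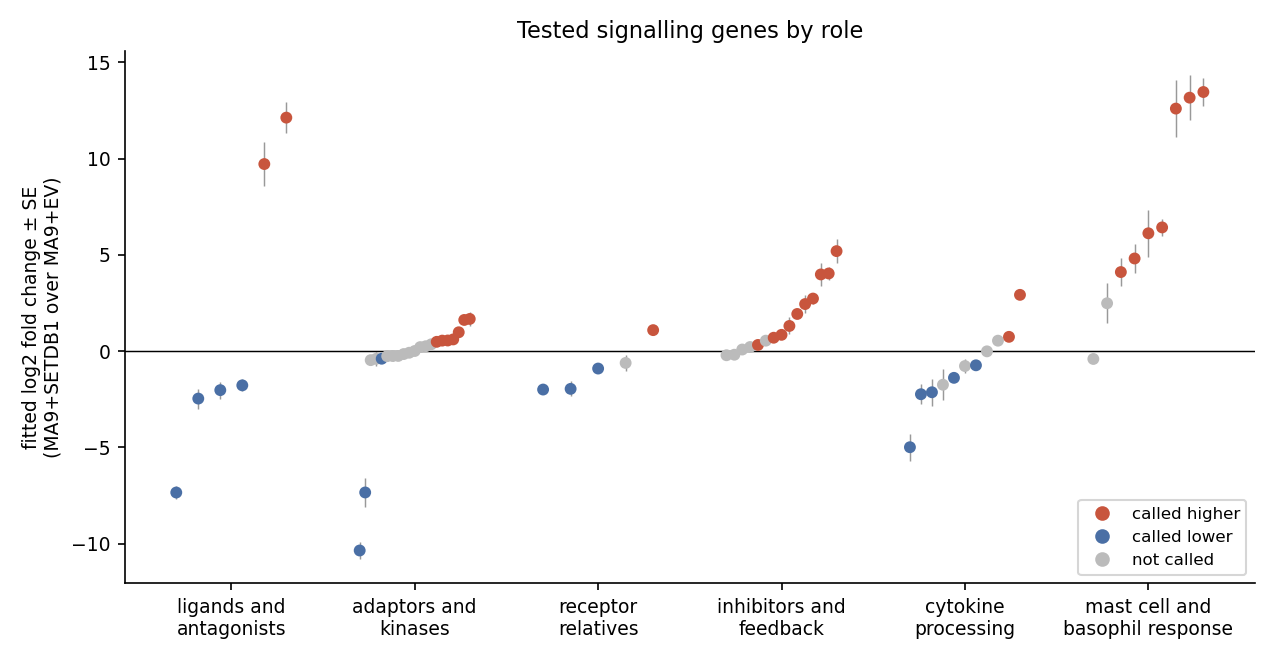
Fitted log2 fold change with its standard error (y axis) of the tested genes of 6 role lists (x axis), sorted within each list and coloured by call at an adjusted p under 0.05. Inhibitor and feedback genes had 10 of 15 called higher and 0 lower, whereas adaptors and kinases had 7 of 21 higher and 3 lower (median 0.00), with Peli2 and Tifa lowest. Over all tested genes, 27.4% were called higher and 26.2% lower.

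Mast cells and basophils are known to release the cytokines of a list of 18 genes on IL-33 or IgE stimulation. Of 9 tested, 7 rose and 0 fell in edgeR's test (also 0 at an unadjusted p under 0.05 and 0 with DESeq2). The median log2 fold change was 6.12, and 77.8% were called, against 53.5% of all genes. Il4, Il13, Il6, Lif, Ccl17 and Cxcl2 passed the low-count filter only through MA9+SETDB1, so they could be called in 1 direction only. The count of 7 higher is thus partly set by the filter, and nothing is read from it. Of the untested genes, Ccl2, Ccl24 and Csf2 went from 18, 9 and 7 counts to 0, 0 and 1. Il10 and Areg went from 0 counts to 38 and 14. Il4 had no counts in MA9+EV and stood at 41.9, 81.9 and 84.5 CPM in MA9+SETDB1, at least 1579-fold higher with the floor set at 3 counts over that arm (edgeR adjusted p = 0.000166). Il13, also without counts in MA9+EV, stood at 10, 51.8 and 52.9 CPM, at least 869-fold higher (edgeR adjusted p = 0.00195). Il6 stood at 0.124, 0.083 and 0.0504 CPM in MA9+EV and at 172, 1152 and 1270 CPM in MA9+SETDB1 (fitted log2 change 13.17, edgeR adjusted p = 0.00017). Lif, a cytokine gene of the IL-6 family, rose by a fitted log2 change of 6.43 (edgeR adjusted p = 4.73e-05, SE 0.42). Ccl3, a chemokine gene, was already present in MA9+EV at 1.45, 33.3 and 32.4 CPM and reached 449, 2159 and 2061 CPM in MA9+SETDB1 (edgeR adjusted p = 0.00547). Replicate 1 was the lowest MA9+SETDB1 library for these 5 genes. Il1rl1 stood at 1277, 1175 and 1153 CPM in MA9+SETDB1 replicates 1, 2 and 3, and a link between Il1rl1 and these genes was not tested. Tnf did not pass, at 8.71 to 10.2 CPM in MA9+EV and 6.91 to 7.55 CPM in MA9+SETDB1, and Il5 had no counts in any library. No label reports exposure to IL-33, IL-18 or IgE.

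Markers of cell types known to carry these receptors were examined beside the family, and their part in the results was not tested. Over all marker lists, 36 genes were tested, of which 19 rose and 15 fell (94.4% called, against 53.5% of all genes). Fcer1a, Cpa3, Cma1, Tpsb2, Prss34, Gata2, Epx, Prg2, Ccr3, Il5ra, Il7r and Pdgfrb passed the low-count filter only through MA9+SETDB1. Kit, Ltf, Camp, Mmp8, Csf3r, Mpeg1, Rora, Tcf7 and Lepr passed it only through MA9+EV. The direction of these calls was set by the filter, so nothing is read from the share called. The summed level of 12 mast cell and basophil markers was 162 to 203 CPM in MA9+EV and 11100 to 11600 CPM in MA9+SETDB1, and of 10 tested genes 9 rose and 1 fell. The gene that fell was Kit, the SCF receptor that mature mast cells keep and basophils mostly lack, which went from 114 ± 3.01 to 1.07 ± 1.22 CPM (edgeR adjusted p = 0.000232). Among mast cell protease genes, Cma1 went from 1 to 6859 counts (edgeR adjusted p = 1.19e-06), Tpsb2 from 0 to 1803 (edgeR adjusted p = 3.65e-05) and Cpa3 from 5 to 48368 (edgeR adjusted p = 6.09e-05), while Mcpt4 and Tpsab1 had 0 and 3 counts in all. In the same list Prss34, a basophil protease gene, went from 20 to 192393 counts (edgeR adjusted p = 5.49e-07) and Mcpt8 from 1539 to 16196 (edgeR adjusted p = 0.00174). Fcer1a went from 9 to 79296 counts (edgeR adjusted p = 1.19e-06). Of 7 natural killer markers 6 had no counts and Eomes had 1 count. Of 11 markers of T helper and type 2 lymphoid cells, 5 were tested, of which 1 rose and 3 fell. Il7r, the IL-7 receptor gene, rose from 30 to 186 counts (edgeR adjusted p = 0.000839), and Rora, a transcription factor gene, fell from 309 to 6 counts (edgeR adjusted p = 0.00367). Cd3g, a T cell receptor component gene, went from 0 to 98 counts and was not tested, whereas Cd3e, Cd4 and Bcl11b had no counts in any library. The sum of the list was 27.4 to 58.2 CPM in MA9+EV and 16.3 to 86.5 CPM in MA9+SETDB1. Most of the MA9+EV sums and the upper MA9+SETDB1 value came from Thy1, which was not called. Thy1 stood at 16.7, 43.3 and 42.3 CPM in MA9+EV and at 78.9, 6.45 and 6.23 CPM in MA9+SETDB1. The 5 eosinophil markers all rose, with sums of 4.48 to 6.9 and 105 to 152 CPM. Of these only Siglecf also passed the low-count filter through MA9+EV. The 6 neutrophil markers all fell, from sums of 9060 to 10900 CPM to 15.3 to 18.7 CPM. Monocyte and macrophage markers divided, with 3 of 6 higher and 3 lower and sums of 2150 to 3670 and 691 to 1720 CPM. Of 3 tested stromal and endothelial markers, 1 rose and 2 fell, with sums of 231 to 366 CPM in MA9+EV and 162 to 217 CPM in MA9+SETDB1. Pdgfrb, a growth factor receptor gene of pericytes and fibroblasts, rose from 4 counts to 82.4, 44.6 and 35.4 CPM (edgeR adjusted p = 2.68e-05). Pecam1, which myeloid cells also express, fell from 319.8 to 128.9 CPM (edgeR adjusted p = 0.00136). Of 5 B cell markers, Cd79b was the only one tested, at 0.913 to 3.96 CPM in MA9+EV and 2.43 to 3.36 CPM in MA9+SETDB1 (edgeR adjusted p = 0.512), and Ms4a1 and Pax5 had no counts.

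The genes most like each member were found by the root mean square difference of centred log2 CPM profiles over the 6 libraries, among 11503 named genes. For Il1rl1 these were Prss34, a basophil protease gene, Cd200r3, a CD200 receptor gene of basophils and mast cells, and Fcer1a, the IgE receptor alpha chain gene, at distances of 0.57, 0.66 and 0.78. For Il1r2 they were Gatm, Nrep and Cysltr1 (0.12 to 0.17), for Il1rl2 Soat1, Serpine2 and Lcn2 (0.32 to 0.35), and for Irak3 Osbpl6, Malrd1 and Plp2 (0.14 to 0.20). For Il18r1 the nearest were Taf9b, Cdkn2c and Hip1r (0.51 to 0.54), for Il18rap Qpctl, Tubgcp4 and Rab8b, for Il1rap Cux1, Rab24 and Cwf19l1, and for Sigirr Slc35a5, Ccng1 and Lrwd1. Members with small differences between the arms had neighbours within 0.09. These profiles mostly reflect the difference between the arms, on which the members were chosen. The nearest genes are thus those with a similar difference between the arms, and shared control was not tested.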

How the data were processed

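Poly-A RNA was measured in 3 MA9+EV and 3 MA9+SETDB1 libraries, grouped by title. The chromatin and ATAC samples were not analysed here. The authors deposited raw read counts for each gene, with 1 file for each library. The submitters' processing notes name GRCm38, STAR 2.6.0c and HTSeq 0.11.0 among other tools, without role. Libraries were strand-specific per the labels' protocols, but no source used here gives the strand setting of counting, so counts of overlapping genes are uncertain. Lines not naming a gene took 24.6% to 26.3% of entries, mostly reads aligned to more than 1 place, and were left out.

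Symbols were matched for all but 67 identifiers. Genes were filtered with filterByExpr, scaled by TMM and tested with edgeR's quasi-likelihood test (edgeR 4.0.16, R 4.3.3), adjusted by Benjamini-Hochberg over 12986 genes at 0.05. The script was tested on simulated data. CPM is per 1e+06 scaled counts. Log2 values for profiles used a prior count of 2, and intervals and floors cover counting error only. Members and lists were chosen with earlier results of these data known. Named genes were all members and ligands, and in other lists up to 4 called genes with the smallest p and a mean of at least 1 CPM, as values only where a result turned on them; others are named for single counts or chosen after their values were seen. Exon lengths and proteins were not used here, so levels were not compared between genes.

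After subtracting arm means, libraries of the same number correlated at 0.257, 0.196 and 0.169. Replicates 2 and 3 correlated across numbers as well (0.203 and 0.177), so these values do not show that replicates 2 and 3 are paired by number. The main test used no pairing, and the replicate number entered as a block only in an alternative. Alternatives were other size factors, DESeq2 1.42.0, other filters, a replicate block, leaving out libraries and summing replicates 2 and 3.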

Additional observations from a re-analysis of the deposited data

How the results depend on the processing

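Over 14 alternatives, none of the 112 log2 fold changes of the 8 tested members changed sign, and 108 moved by less than the spread between libraries. The other 4 were those of Il1rl1 (17.52 and 17.51) and Il18r1 (5.96 and 6.00) without MA9+EV replicate 1 and without replicate 1 of both arms. The Il1rl1 values there are fitted against an arm with no counts and are no measure of size. The Il18r1 call was lost when any single library other than MA9+EV replicate 1 was left out, and Il1rap, Il18r1 and Sigirr were lost with replicates 2 and 3 summed. Of 714 values of 51 other named genes, 698 kept their side of the threshold, 10 lost the call, 6 gained it and none changed sign.

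With replicates 2 and 3 of each arm summed, which leaves 2 libraries an arm, calls over all genes went from 3554 higher and 3397 lower to 2292 and 1928, signalling genes from 29 and 15 to 19 and 8, and members higher from 5 to 3. Under this setting Il1rn, Il18bp, Tlr2, Aim2 and Tmed1 also lost their calls (edgeR adjusted p = 0.0506, 0.0557, 0.0513, 0.0699 and 0.105). Without replicate 1 of both arms, 5285 of all genes and 25 signalling genes were lower. Of the cluster's neighbours 1, Map4k4, was called higher with DESeq2's Wald test, with no low-count filter, with the replicate block and without replicate 1 of both arms, and without MA9+SETDB1 replicate 2 or 3 (edgeR adjusted p = 0.039 and 0.0321), against 0 otherwise. The cause of these changes was not tested. Leaving out single libraries gave 2992 to 4231 higher and 2727 to 4063 lower calls over all genes, 26 to 31 and 13 to 19 signalling genes, 0 to 1 and 2 to 3 neighbours, 19 to 21 and 12 to 16 markers, and 4 to 5 and 3 to 3 members. With the replicate block, 31 signalling genes were higher and 19 lower, and 5 members higher and 3 lower. Levels per transcript length were not run, since exon lengths were not used here. At 2 to 7 counts per library, a difference in Il1r1 was not detectable at this depth.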
